A study of Homo sapiens with 12 samples.

Results

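PXN, the gene of the focal adhesion protein paxillin, was depleted with siRNA in LNCaP cells that received no added hormone, and the transcripts of these cells were compared with those of cells given a non-specific siRNA. LNCaP is a prostate cancer line, established from a lymph node metastasis and sensitive to androgen. Cells of both groups were transfected for 48 h, kept without serum for 12 h and then given ethanol, the vehicle of the hormone, for 24 h. The comparison uses 6 of the 12 libraries of the study, 3 with PXN siRNA and 3 with non-specific siRNA. The other 6 differ only in that 2.5 nM dihydrotestosterone (DHT), a potent androgen, was given in place of the vehicle alone, and they enter where values without and with hormone are set side by side. Of the 36137 genes listed, 18468 had enough counts to be tested. Genes of the cell cycle, the interferon response and lipid synthesis were set aside as 3 lists, and the account covers the rest, by pathway and gene class. The labels give neither the number nor the sequences of the siRNAs against PXN, so each group stands for its siRNA reagent. The labels do not say whether replicates were separate cultures. The p-values therefore rest on the spread among these libraries, part or all of which may be technical.

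Paxillin is an adaptor protein that docks kinases and cytoskeletal proteins at focal adhesions, the sites where integrins tie the actin cytoskeleton to the extracellular matrix. It also moves between adhesions and the nucleus, and in prostate cells it is known for a part in androgen signalling. Adhesion sites feed kinase cascades that growth factors use as well, and those cascades set the rate of growth and of protein synthesis.

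Values are CPM, counts scaled to a common library size, which compare libraries for 1 gene but not genes of different length. Library values are given in the order of replicates 1 to 3, and means as mean ± SD of 3 libraries. Fold changes are log2 ratios of PXN siRNA over non-specific siRNA ± SE. A gene is said to have risen or fallen only where edgeR's quasi-likelihood test gave a Benjamini-Hochberg adjusted p under 0.05 over all genes tested. PXN itself stood at 111.7, 106 and 108 CPM with non-specific siRNA and 15.2, 21.2 and 14.9 CPM with PXN siRNA, so the siRNA labels matched the target in all 6 libraries. Replicate 2 of the PXN siRNA kept the most PXN. It was also the PXN library nearest to the controls for 1356 (62.7%) of the 2162 genes that changed at least 2-fold, against 16.4% for replicate 1 and 20.9% for replicate 3. The part of the remaining PXN in this difference was not tested. Without that replicate 8994 genes passed, against 9276 with all 3 replicates and 7796 and 8214 without replicates 1 and 3 of the PXN siRNA.

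The background against which each count has to be read is wide. Of all genes tested, 50.2% passed under vehicle, 23.9% higher and 26.3% lower with PXN siRNA, and 11.7% passed with a change of at least 2-fold. The 3 PXN libraries lay wholly above or wholly below the 3 control libraries for 56.9% of genes. The lean of the calls followed the level of a gene. Among the 4442 genes with a mean under 1 CPM, 22% rose and 5.27% fell, whereas among the 2425 genes over 100 CPM 17.4% rose and 48% fell. Between them, 29% rose and 12.8% fell at 1 to 5 CPM, 28.7% and 27.5% at 5 to 20 CPM, and 23.1% and 40% at 20 to 100 CPM. The median log2 fold change of all genes was 0.02. Upper-quartile scaling moved that median to 0.12 and put 60.2% of the calls higher, against 47.7%, so a list whose lean turned with this shift is named as such. Counts of a list are over the members that passed the filter on low counts, such as 46 of 69 protocadherins, 26 of 43 collagens, 55 of 92 histone genes and all 79 cytoplasmic ribosomal protein genes. A low gene can pass that filter through the group in which it is higher, so the counts of the low lists are descriptions only.

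**Figure D1:**
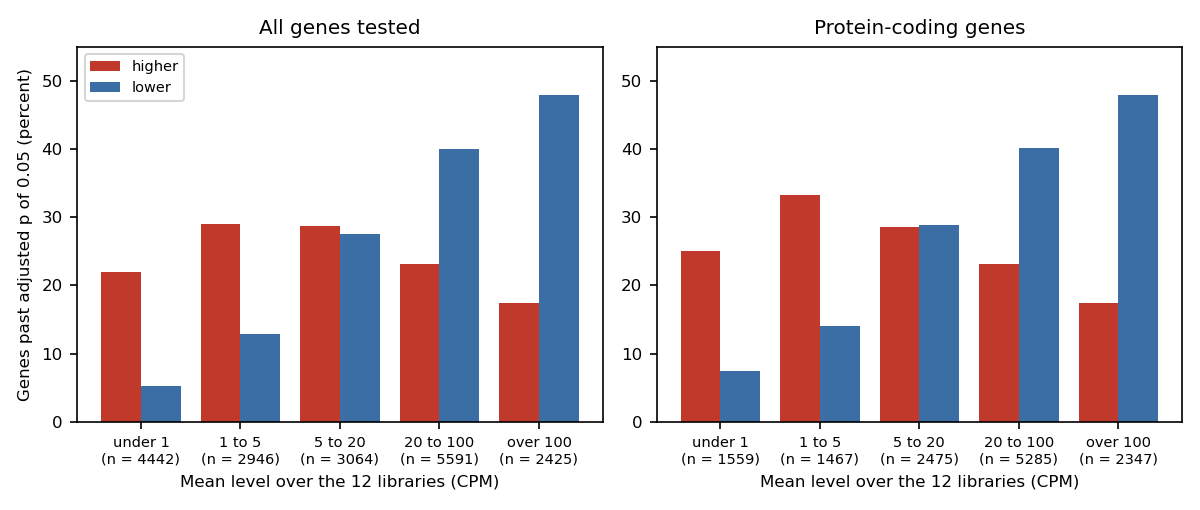
Percent of genes higher (red) and lower (blue) with PXN siRNA under vehicle, by mean level over the 12 libraries, for all genes tested and for protein-coding genes. Calls lean higher among genes under 5 CPM and lower among genes over 20 CPM in both panels.

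The 15 largest rises among genes that reached 5 CPM lay in enzymes of thyroid hormone, nitric oxide, purine and xenobiotic metabolism, in keratins and vimentin, and in little-described loci. DIO3, which encodes the deiodinase that inactivates thyroid hormone, stood at 104, 70.8 and 57.6 CPM with non-specific siRNA and 803, 447 and 678 CPM with PXN siRNA. The lowest PXN library was far above the highest control (log2 fold change 3.05 ± 0.27). DIO3 lies at chromosome 14, 101561351 to 101563452, plus strand (GRCh38), with no overlapping gene in GENCODE 29. Its neighbour DIO3OS, a noncoding RNA at chromosome 14, 101552221 to 101560431, minus strand, rose with it by 3.49 ± 0.27 on the log2 scale.

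NOS3, the nitric oxide synthase of endothelium, gave 34.1, 23.7 and 19.7 CPM with non-specific siRNA and 387, 189 and 317 CPM with PXN siRNA, again with replicate 2 the lowest of the PXN libraries. Reads of ATG9B, which overlaps NOS3 on the other strand, may be mixed in, because the labels do not say whether counting used strand. XDH, xanthine dehydrogenase of purine breakdown, stood at 1.63, 1.84 and 1.44 CPM with non-specific siRNA and 16.5, 10.7 and 14.8 CPM with PXN siRNA (log2 fold change 3.09 ± 0.19). CYP1A1, the xenobiotic cytochrome P450 that is the classic target of the aryl hydrocarbon receptor, stood at 2.01, 1.92 and 1.55 CPM with non-specific siRNA and 11.2, 7.91 and 17.3 CPM with PXN siRNA (2.73 ± 0.28). Both enzymes were low in every control library and clearly above that in every PXN library.

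Intermediate filament genes formed a second set of the leading rises. KRT80, a type II keratin of many epithelia, stood at 2.65, 1.89 and 2.45 CPM with non-specific siRNA and 27.3, 13.3 and 20.4 CPM with PXN siRNA (log2 fold change 3.13 ± 0.27). VIM, vimentin of mesenchymal cells, stood at 6.44, 4.22 and 3.999 CPM with non-specific siRNA and 40.6, 24.3 and 29.9 CPM with PXN siRNA (2.69 ± 0.25). The groups did not overlap for either gene. VIM-AS1, which overlaps VIM on the other strand, rose as well, from 0.532 ± 0.273 to 4.91 ± 1.23 CPM, and the reads of that pair cannot be told apart here. KRT75, a keratin of the hair follicle, rose from 0.453 ± 0.104 to 8.62 ± 2.38 CPM.

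The remaining leading rises were low in the controls. AC109309.4, known only by its clone name, was the largest of all at 0.175, 0.108 and 0.144 CPM with non-specific siRNA and 13.2, 5.28 and 8.29 CPM with PXN siRNA (log2 fold change 5.94 ± 0.49). MRGPRE, an orphan receptor gene, is overlapped in GENCODE 29 by AC109309.1, a gene of the same clone series, and rose by 4.83 ± 0.44. STMN4, of the stathmin family that destabilises microtubules, rose from 0.581 ± 0.223 to 5.21 ± 2.49 CPM. RAET1L, a stress-induced ligand of the natural killer receptor NKG2D, rose from 0.787 ± 0.241 to 6.401 ± 1.37 CPM, and ADGRF4, an adhesion G protein-coupled receptor, from 0.663 ± 0.158 to 5.14 ± 0.868 CPM. MCPH1-AS1, which overlaps MCPH1, and RP11-242J7.1, a locus with a clone name only, rose by 3.68 ± 0.19 and 3.05 ± 0.27. The largest adjusted p among the 15 rises was 7.82e-05 (edgeR quasi-likelihood test).

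**Figure D2:**
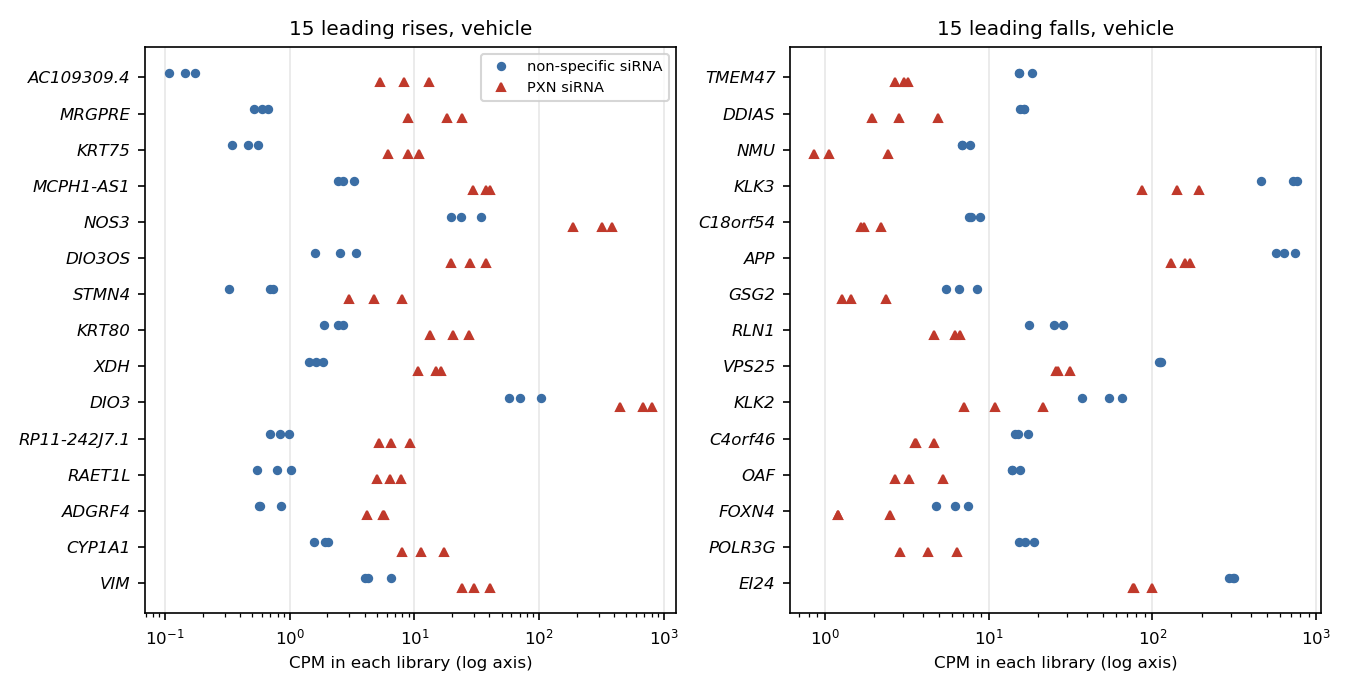
CPM of the 15 leading rises (left) and 15 leading falls (right) in each of the 3 libraries with non-specific siRNA (blue circles) and with PXN siRNA (red triangles) under vehicle, on a log axis. The 2 groups do not overlap for any of the 30 genes, as the choice of genes required.

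The AP-1-type word TGANTCA, a widened form of the letters that Fos and Jun dimers bind, was found in the 250 bases before the RefSeq start of 2 of the 10 leading rises that have a promoter in the table (20%). Of all 27305 promoters of that length, 6.6% hold it on either strand, as do 4.14% of the 10931 that belong to tested genes. The share was 5.71% for promoters of all genes that rose and 3.01% for all genes that fell. The windows are shown because they belong to the leading rises, with the word in capitals (RefSeq, GRCh38.p14). The dimers are known to bind C or G at the middle letter, which the second ADGRF4 window does not have.

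ADGRF4, AP-1-type word, chr6:47698446-47698475, plus strand: agacaaacaagTGACTCActttaatggatt
ADGRF4, AP-1-type word, chr6:47698526-47698555, plus strand: ccatagtggagTGAATCAcagacttgcaca
RAET1L, AP-1-type word, chr6:150025580-150025609, minus strand: cagaatcgaggTGACTCAttccccggtaca

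The 15 largest falls, by contrast, included several abundant transcripts. VPS25, a subunit of the ESCRT-II complex that sorts proteins in endosomes, stood at 109.97, 111 and 113 CPM with non-specific siRNA and 26.5, 31.3 and 25.8 CPM with PXN siRNA. The 3 controls lay within a narrow range, and all PXN libraries far below it (log2 fold change -1.999 ± 0.08, edgeR quasi-likelihood adjusted p = 7.73e-09). APP, the amyloid precursor protein, stood at 746, 638 and 570.3 CPM with non-specific siRNA and 157, 171 and 131 CPM with PXN siRNA (-2.09 ± 0.14). EI24, a membrane protein of the endoplasmic reticulum with a part in autophagy, stood at 312, 292 and 314 CPM with non-specific siRNA and 75.8, 99.02 and 77.4 CPM with PXN siRNA (-1.86 ± 0.10). In each of these 3 genes the highest PXN library was far below the lowest control.

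TMEM47, a membrane protein of cell junctions, led the falls at 18.4, 15.3 and 15.3 CPM with non-specific siRNA and 3.02, 3.203 and 2.67 CPM with PXN siRNA (log2 fold change -2.46 ± 0.12). Secreted products of luminal prostate cells followed: KLK3, prostate-specific antigen, by -2.21 ± 0.24, its neighbour KLK2 from 52.3 ± 14.4 to 13.1 ± 7.42 CPM, and RLN1, relaxin 1, from 23.8 ± 5.56 to 5.87 ± 1.07 CPM. KLK2 and KLK3, and RLN1 and RLN2, are close copies that can share reads. NMU, the peptide neuromedin U, fell from 7.12 ± 0.458 to 1.45 ± 0.849 CPM, and OAF, a secreted protein gene, from 14.5 ± 1.02 to 3.76 ± 1.37 CPM. POLR3G, a subunit of RNA polymerase III, fell from 16.9 ± 1.77 to 4.52 ± 1.76 CPM, and FOXN4, a forkhead factor, from 6.16 ± 1.37 to 1.63 ± 0.738 CPM. GSG2, now named HASPIN, is a mitotic kinase gene that was not on the cell cycle list, and it fell by 2.02 ± 0.23. DDIAS, a DNA damage response gene, fell by 2.32 ± 0.21, C18orf54 by 2.11 ± 0.14 and C4orf46 by 1.99 ± 0.13 on the log2 scale. The largest adjusted p among the 15 falls was 0.000381 (edgeR quasi-likelihood test).

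The letters of the androgen half-site, AGAACA, lie in the KLK3 window, which is shown because KLK3 is the best known androgen target among the falls. Of all promoters of 250 bases, 12.4% hold the half-site on either strand, as do 7.74% of the 10931 that belong to tested genes. The share was 7.21% for genes that fell and 8.53% for genes that rose, both near that of tested genes. The half-site is also the left arm of the full palindromic androgen response element, which 1 of the 27305 promoters holds letter for letter. Elements with changed letters in an arm were not searched for. The search therefore does not say whether AGAACA in the KLK3 window is part of such an element.

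KLK3, androgen half-site, chr19:50854733-50854762, plus strand: tctagtaattgcAGAACAgcaagtgctagc

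Transcription factors of the luminal prostate lineage moved in both directions. HOXB13, a homeobox factor of prostate enhancers, stood at 539, 521 and 568 CPM with non-specific siRNA and 274, 312 and 312 CPM with PXN siRNA (log2 fold change -0.86 ± 0.06, edgeR quasi-likelihood adjusted p = 1.78e-07), with no overlap of groups. Of 18 lineage transcription factors tested, 10 fell and 4 rose (55.6% and 22.2%), against 26.3% and 23.9% of all genes, with a median log2 fold change of -0.26. Their median level was 111 CPM, and of all genes over 100 CPM 48% fell and 17.4% rose, so the count lay near that of genes at this level. Besides HOXB13, the factors below were chosen after their values were seen. ETV1, an ETS factor that is rearranged in LNCaP, fell from 153 ± 3.72 to 54.8 ± 17.04 CPM, and EHF, an epithelial ETS factor, from 305 ± 13.1 to 202 ± 19.01 CPM. FOXA1, the forkhead pioneer factor, fell by 0.35 ± 0.06 and GATA2 by 0.31 ± 0.06, while ELF3, another epithelial ETS factor, rose from 46.7 ± 4.41 to 109 ± 15.9 CPM and SOX9, a progenitor factor, from 12.4 ± 2.77 to 25.9 ± 8.87 CPM. GRHL1, of the grainyhead family, rose from 19.4 ± 0.977 to 31.3 ± 0.609 CPM, and KLF4 by 0.96 ± 0.17. SOX9 was not called without non-specific replicate 2 or PXN replicate 1 (0.73 to 0.91). In bulk RNA a lower share of cells with a transcript and less of it in each cell cannot be told apart.

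**Figure D3:**
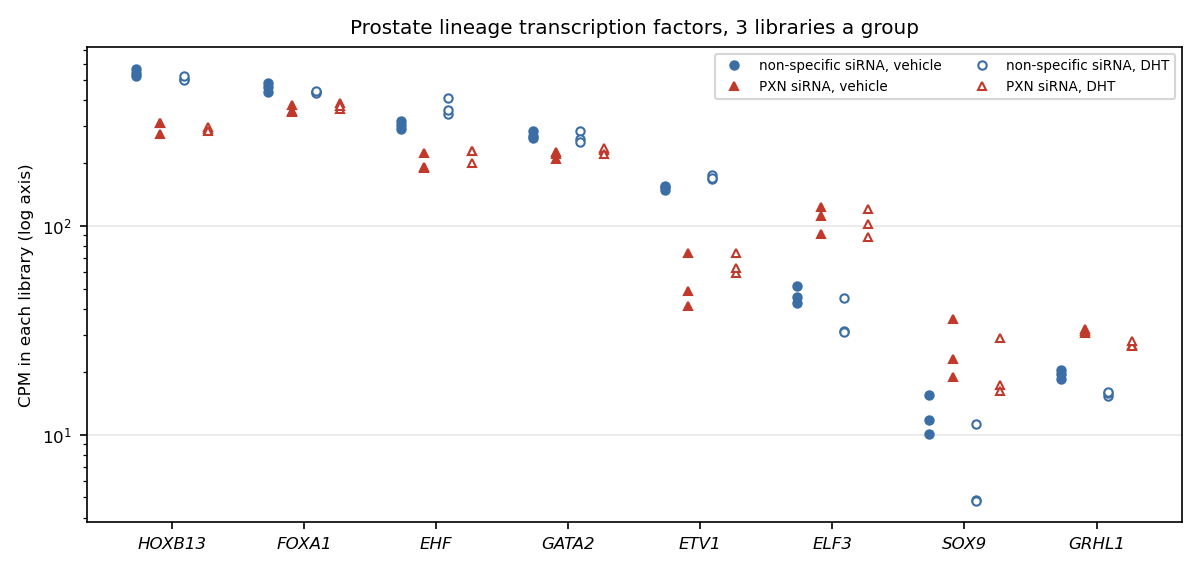
CPM of 8 prostate lineage transcription factors in each library (log axis): non-specific siRNA (circles) and PXN siRNA (triangles), under vehicle (filled) and under DHT (open), 3 libraries a group. HOXB13, EHF and ETV1 sit lower with PXN siRNA in every library under both treatments, and ELF3, SOX9 and GRHL1 sit higher.

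Other luminal markers changed less. KRT8, a luminal keratin, stood at 449 and 489 CPM (means of the non-specific and PXN siRNA, log2 fold change 0.12 ± 0.08, adjusted p = 0.209 in edgeR's quasi-likelihood test), and EPCAM at 127 and 137 CPM (0.10 ± 0.08, adjusted p = 0.294). TMPRSS2, an androgen-induced protease, did not pass (-0.30 ± 0.18, adjusted p = 0.178). TMPRSS2 did pass with no low-count filter and with only the groups compared, and KRT8 and EPCAM did, as higher, under upper-quartile scaling. FOLH1, prostate-specific membrane antigen, fell from 1615 ± 93.9 to 1321 ± 125 CPM and KRT18 from 243 ± 13.7 to 190.2 ± 11.96 CPM. The 10 luminal markers summed to 4332 to 4902 CPM in the controls and 2797 to 3251 CPM in the PXN libraries. Most markers that define other cell types were near 0: KRT5, TP63, PECAM1, PTPRC, DCN and COL1A2 had at most 3 counts in any vehicle library. The 3 basal markers summed to at most 0.189 CPM and the leukocyte markers to at most 0.354 CPM. Of the endothelial markers VWF was not near 0, at 14.02 and 17.1 CPM (means of the non-specific and PXN siRNA), and it did not pass (log2 fold change 0.29 ± 0.12, adjusted p = 0.06 in edgeR's quasi-likelihood test). It did pass, as higher, with DESeq2, under DESeq2 size factors or upper-quartile scaling, with a filter at a mean of 1 CPM, with only the groups compared, with a replicate block, and without PXN replicate 1 or 1 DHT library (0.27 to 0.39). The endothelial markers summed to 12.8 to 14.98 CPM in the controls and 14.8 to 18.6 CPM with PXN siRNA, and their part in the rise of NOS3 was not tested. The 9 fibroblast and smooth muscle markers summed to 564 to 1132 CPM in the controls and 506 to 831 CPM with PXN siRNA, most of it FN1, which did not pass (adjusted p = 0.194 in edgeR's quasi-likelihood test) but did with a replicate block (log2 fold change -0.44) and with no low-count filter (-0.48). Beside the rise of VIM, DCN had at most 2 counts in a vehicle library and COL1A2 had 0, COL1A1 changed by 0.57 ± 0.09, TAGLN by 0.56 ± 0.20, COL3A1 by -0.80 ± 0.19 and LUM by -2.22 ± 0.46. FOLH1 was not called under upper-quartile scaling, nor without non-specific replicate 1 or PXN replicate 1 (-0.26 to -0.25), nor TAGLN without non-specific replicate 1 or 3 or PXN replicate 1 or 2 (0.41 to 0.54). The part of other cells in these values was not tested.

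Nuclear receptors showed no common direction. Of 34 tested, 7 rose and 10 fell, near the background, and the lean turned to 10 higher and 7 lower under upper-quartile scaling, with 4 higher without PXN replicate 1. PPARD, a fatty acid sensor, fell from 46.4 ± 5.199 to 29.7 ± 0.0151 CPM. Coactivators and corepressors split evenly, 13 higher and 13 lower of 48 (8 lower under upper-quartile scaling). NCOA4, a coactivator that also carries ferritin to lysosomes, fell from 211 ± 10.4 to 131 ± 7.78 CPM, SMARCE1, of the SWI/SNF remodeller, from 122 ± 10.1 to 79.9 ± 4.71 CPM, and LCOR, a ligand-dependent corepressor, rose from 59.5 ± 1.61 to 94.7 ± 7.53 CPM. Among histone lysine methyltransferases and demethylases, 18 rose and 14 fell of 60, or 15 and 16 without PXN replicate 3. SETD7, a lysine methyltransferase, stood at 493, 472 and 532 CPM with non-specific siRNA and 203, 246 and 211 CPM with PXN siRNA, and KDM6B, a demethylase of histone H3 lysine 27, at 162, 181 and 159 CPM with non-specific siRNA and 366, 287 and 344 CPM with PXN siRNA. They moved by -1.18 ± 0.08 and 0.99 ± 0.09, in opposite directions and with no overlap of groups. Among 479 ZNF zinc finger genes, 120 rose and 82 fell (25.1% and 17.1%), with 51 lower under upper-quartile scaling. Their median level was 15.75 CPM, and of all genes at 5 to 20 CPM 28.7% rose and 27.5% fell. ZNF292 rose from 40.2 ± 1.99 to 152 ± 24.1 CPM. KLF6, an early response factor, rose from 15.96 ± 1.78 to 46.1 ± 9.46 CPM, and FOXM1, the forkhead factor of mitotic genes, fell from 109 ± 6.16 to 25.6 ± 7.99 CPM.

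The clock genes leaned upward, 12 higher and 4 lower of 24 (median 0.23). CRY1, a repressor of the clock, stood at 30.8, 29.9 and 31.9 CPM with non-specific siRNA and 96.5, 74.8 and 93.1 CPM with PXN siRNA (log2 fold change 1.51 ± 0.09). NPAS2, a partner of BMAL1, rose from 6.59 ± 0.246 to 17.1 ± 2.01 CPM, and NFIL3, a repressor in the output arm, from 14.95 ± 0.784 to 30.3 ± 3.298 CPM. The 4 that fell, named after their values were seen, were TIMELESS (-0.70 ± 0.08), which also serves replication forks, CLOCK (-0.45 ± 0.06), ARNTL2 (-0.42 ± 0.13) and PER3 (-0.22 ± 0.07). ARNTL2 lost its call without non-specific replicate 3 or PXN replicate 1 (-0.37 to -0.30) and PER3 without non-specific replicate 3 or PXN replicate 2 (-0.20 to -0.19) and under upper-quartile scaling.

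Protein synthesis genes fell as broadly as any class described here. Of 79 cytoplasmic ribosomal protein genes tested, 67 fell and 0 rose, of 77 mitochondrial ribosomal protein genes 66 fell and 0 rose, and of 71 nucleolar ribosome biogenesis genes 65 fell and 0 rose. No member of these 3 lists rose at an unadjusted p under 0.05 either, and DESeq2 and limma-voom also put 0 higher. The medians were -0.33, -0.40 and -0.48 on the log2 scale, beside 0.02 for all genes, and stood at -0.23, -0.31 and -0.38 under upper-quartile scaling. These genes are abundant, with median levels of 588, 46.4 and 61.1 CPM, in a range where 40% to 48% of genes fell.

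Single changes within the ribosomal proteins were small but narrow. RPS16, of the small cytoplasmic subunit, fell from 838 ± 20.4 to 587 ± 55.6 CPM, and RPL23A, of the large subunit, from 157 ± 9.53 to 102 ± 11.8 CPM. Both have pseudogene copies that could share reads. In the mitochondrial ribosome the falls were larger: MRPS27 stood at 261, 253 and 274 CPM with non-specific siRNA and 100.3, 132 and 106 CPM with PXN siRNA (log2 fold change -1.22 ± 0.09), and MRPL3 at 176, 164 and 189.9 CPM with non-specific siRNA and 84.3, 102 and 91.3 CPM with PXN siRNA (-0.93 ± 0.08). In the nucleolus, TCOF1, treacle of ribosomal DNA transcription, fell from 56.3 ± 4.88 to 27.5 ± 2.59 CPM, NOP58, a core protein of box C/D particles, from 106 ± 7.11 to 56.1 ± 7.36 CPM, and RRP1B, an rRNA processing factor, from 85.3 ± 3.71 to 51.8 ± 5.28 CPM.

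Among the factors that load and charge the ribosome, falls also outnumbered rises. Of 38 tRNA synthetase genes 30 fell and 0 rose (median -0.34, 0 also at an unadjusted p under 0.05 and by DESeq2 and limma-voom). FARSB, phenylalanyl-tRNA synthetase, fell from 130.1 ± 8.11 to 68.1 ± 6.77 CPM, IARS, the isoleucyl enzyme, from 394 ± 24.4 to 224 ± 26.6 CPM, and EARS2, the mitochondrial glutamyl enzyme, from 111 ± 4.21 to 68.4 ± 7.54 CPM. Of 99 initiation and elongation factor genes, pseudogenes among them, 43 fell and 6 rose (43.4% and 6.06%). Their median level was 30.5 CPM, and of all genes at 20 to 100 CPM 40% fell and 23.1% rose. The share of falls was thus near that of genes at this level, and the share of rises lower. EIF5A, the hypusine-bearing factor, stood at 333, 332 and 346 CPM with non-specific siRNA and 129.6, 173 and 147 CPM with PXN siRNA (log2 fold change -1.17 ± 0.10). EIF2S3, the gamma subunit of the initiation factor that brings the first tRNA, fell from 334 ± 18.1 to 164 ± 17.6 CPM. Of the 6 that rose, 4 are named as pseudogenes or copies, EEF1B2P3, EIF4A1P10, EIF4EP2 and EIF2S3L, and the others were EIF2AK3 (0.24 ± 0.09) and EIF6 (0.15 ± 0.06), all named after their values were seen. EIF6 was no longer called without non-specific replicate 1, 2 or 3 or PXN replicate 1, 2 or 3 or single DHT libraries (0.08 to 0.16), EIF2AK3 without non-specific replicate 1, 2 or 3 or PXN replicate 1, 2 or 3 or single DHT libraries (0.18 to 0.26) and EIF2S3L without non-specific replicate 1 or 2 or PXN replicate 2 (1.00 to 1.11). The 6 became 3 without non-specific replicate 1 or 2 or without PXN replicate 2, 12 under upper-quartile scaling and 11 with a replicate block. EIF4EBP2, a repressor of cap-dependent initiation that mTOR controls, fell from 255 ± 25.6 to 134 ± 5.54 CPM.

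Genes of RNA processing and protein turnover leaned the same way. Of 127 spliceosome and splicing factor genes 65 fell and 16 rose (median -0.19, or -0.09 under upper-quartile scaling). SNRPB, of the Sm ring, fell from 131 ± 5.62 to 70.99 ± 7.68 CPM, SNRPA, of the U1 particle, from 42.9 ± 2.598 to 22.5 ± 2.57 CPM, and U2AF2, which finds the polypyrimidine tract, from 298 ± 8.66 to 179.9 ± 14.5 CPM. Of 46 proteasome genes 34 fell and 5 rose (median -0.33). PSMD11 and PSMD14, of the regulatory lid, fell from 164 ± 3.34 to 101.4 ± 6.19 CPM and from 94.5 ± 5.87 to 59.96 ± 3.85 CPM. The 5 that rose, named after their values were seen, were PSMB9 (1.71 ± 0.33), PSMB8 (1.70 ± 0.38) and PSMB10 (1.24 ± 0.15), the catalytic subunits that interferon swaps in, and the activator genes PSME1 (0.25 ± 0.08) and PSME4 (0.19 ± 0.07). PSME1 was no longer called without non-specific replicate 2 or 3 or PXN replicate 3 (0.16 to 0.23), nor PSME4 without non-specific replicate 1, 2 or 3 or PXN replicate 1 or 3 or single DHT libraries (0.12 to 0.20).

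Chaperones split by kind. Of the 14 genes of the CCT chaperonin and its prefoldin partner, which fold actin and tubulin, 11 fell and 1 rose (PFDN5, 0.24 ± 0.06, named after its value was seen), with CCT2 from 397 ± 21.5 to 263 ± 25.95 CPM and CCT7 from 248 ± 10.2 to 166 ± 13.99 CPM. Among 95 heat shock and DNAJ genes, 24 rose and 32 fell. That lean turned to 31 higher and 22 lower under upper-quartile scaling. HSPA8, the constitutive HSP70, stood at 3612, 3272 and 3542 CPM with non-specific siRNA and 1578, 1971 and 1669 CPM with PXN siRNA, whereas HSPA1B, the inducible one, stood at 99.8, 95.2 and 103 CPM with non-specific siRNA and 216, 178 and 207 CPM with PXN siRNA. They moved in opposite directions, by -0.998 ± 0.09 and 1.01 ± 0.08. HSPA1B has a near-identical copy, HSPA1A, with which it can share reads.

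**Figure D4:**
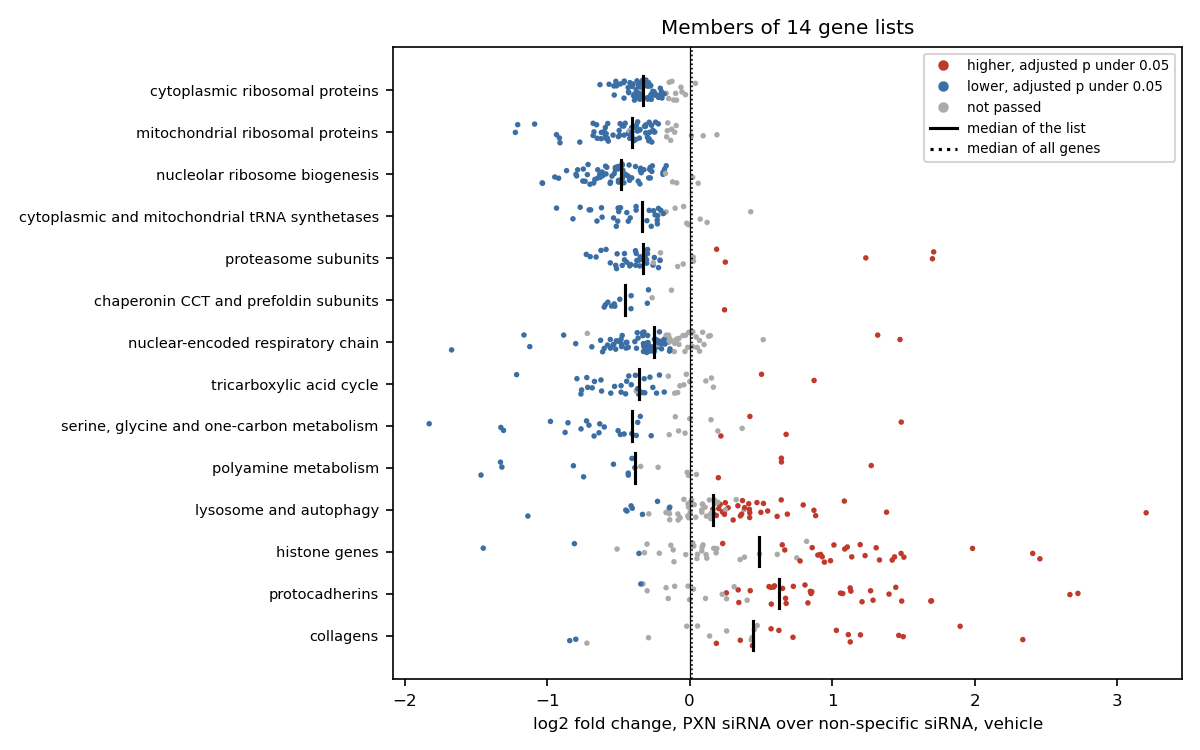
Log2 fold change under vehicle of each tested member of 14 gene lists, coloured by call, with the median of each list (bar) and of all genes (dotted line, 0.02). Members of the ribosome, tRNA synthetase, proteasome, respiratory chain and one-carbon lists lie mostly left of 0, and those of the histone, protocadherin and collagen lists mostly right of it.

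The ETS-type word CCGGAAG, the core that ETS-family factors bind, was more common before the starts of these genes than elsewhere. It was found on either strand in 28.6% of 63 cytoplasmic ribosomal protein promoters, 32.4% of 68 mitochondrial ribosomal protein promoters, 29.8% of 57 ribosome biogenesis promoters and 35.3% of 17 tRNA synthetase promoters. The share was 8.82% of all 27305 promoters of 250 bases, 15% of the 10931 that belong to tested genes, 19.2% of those that fell and 11.2% of those that rose. A match describes the letters, not a bound site. Windows of genes named above are shown with the word in capitals, on the strand of the gene (RefSeq, GRCh38.p14), and in VPS25 the first of the pair holds it as CTTCCGG, its reverse complement.

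MRPL3, ETS-type word, chr3:131502985-131503014, minus strand: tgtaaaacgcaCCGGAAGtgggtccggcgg
EARS2, ETS-type word, chr16:23557371-23557400, minus strand: ggaagcagtccCCGGAAGtgacgcagggag
SNRPB, ETS-type word, chr20:2470812-2470841, minus strand: agtgagctggaCCGGAAGtaggtttctacc
U2AF2, ETS-type word, chr19:55654994-55655023, plus strand: gccggcggcggCCGGAAGtagccgaagcca
VPS25, ETS-type word, chr17:42773368-42773397, plus strand: ttccagaaaggCTTCCGGaacctttctgca
VPS25, ETS-type word, chr17:42773419-42773448, plus strand: ggaagcgaaggCCGGAAGtccttagccggt

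Nuclear-encoded genes of mitochondrial energy metabolism also fell more often than they rose. Of 102 nuclear-encoded respiratory chain genes, pseudogenes among them, 68 fell and 2 rose (COX7B2, 1.32 ± 0.23, and the pseudogene ATP5HP4, 1.48 ± 0.47, named after their values were seen), with a median of -0.25, and 7 rose under upper-quartile scaling. ATP5HP4 was not called without non-specific replicate 3 or PXN replicate 1 or 3 (1.04 to 1.41). COX6C, of cytochrome oxidase, fell from 132 ± 0.593 to 60.6 ± 8.76 CPM, and NDUFS3, a core subunit of complex I, from 79.3 ± 0.957 to 53.1 ± 4.12 CPM. Of 43 genes of the tricarboxylic acid cycle 30 fell and 2 rose (median -0.36). CS, citrate synthase, stood at 464, 437 and 456 CPM with non-specific siRNA and 248, 290.1 and 264 CPM with PXN siRNA, and GOT1, the cytosolic aspartate aminotransferase, at 77.8, 83.7 and 85.7 CPM with non-specific siRNA and 44.2, 50.2 and 48.5 CPM with PXN siRNA. Their falls were 0.76 ± 0.07 and 0.79 ± 0.07 on the log2 scale, with no overlap. PDP1, which activates pyruvate dehydrogenase, and OGDHL rose by 0.87 ± 0.10 and 0.50 ± 0.09 (named after their values were seen).

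The mitochondrially encoded transcripts of the same complexes went the other way by values that rested on single libraries. Of 13 genes 3 passed as higher: MT-ND6 (0.45 ± 0.18), MT-CYB (0.42 ± 0.15) and MT-ND3 (0.35 ± 0.12), and none had groups that did not overlap. Without non-specific replicate 2 all 13 passed as higher. Without non-specific replicate 1 or 3, or PXN replicate 2, 0 passed in edgeR's quasi-likelihood test, and without PXN replicate 1 only 1 did. With all libraries DESeq2 gave 5, limma-voom 4, upper-quartile scaling 8 and a replicate block 11.

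Genes of one-carbon and polyamine metabolism, which feed nucleotide synthesis and growth, fell more often than they rose. Of 33 genes of serine, glycine and one-carbon metabolism 21 fell and 4 rose (63.6% and 12.1%, median -0.41). Their median level was 34.55 CPM, and of all genes at 20 to 100 CPM 40% fell and 23.1% rose. TYMS, thymidylate synthase, fell by 1.83 ± 0.12 and is also known as an S-phase gene. AHCYL1, related to the enzyme that clears S-adenosylhomocysteine, fell from 180.03 ± 10.2 to 106 ± 7.87 CPM. Among those that rose, named after their values were seen, were ALDH1L1 (1.49 ± 0.33), AMT (0.68 ± 0.21) and MAT2B (0.22 ± 0.07). The call of AMT was lost without non-specific replicate 1 or 3 or PXN replicate 2 (0.53 to 0.55) and that of MAT2B without non-specific replicate 2 or 3 or PXN replicate 1 or 3 or single DHT libraries (0.15 to 0.22).

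Prostate cells make polyamines in unusual amounts, and 10 of 19 polyamine genes fell while 4 rose (52.6% and 21.1%). Their median level was 71.34 CPM, and of all genes at 20 to 100 CPM 40% fell and 23.1% rose. The share of rises was thus near that of genes at this level, and the share of falls somewhat higher. AMD1, S-adenosylmethionine decarboxylase, stood at 1148, 966 and 1144 CPM with non-specific siRNA and 410.2, 470.2 and 426 CPM with PXN siRNA (log2 fold change -1.32 ± 0.08). SRM, spermidine synthase, stood at 177, 179 and 198 CPM with non-specific siRNA and 61.8, 82.1 and 76.6 CPM with PXN siRNA (-1.33 ± 0.11). ARG2, the arginase that supplies ornithine, fell from 91.5 ± 9.26 to 33.1 ± 5.24 CPM. The 4 that rose, named after their values were seen, were SAT1 (1.27 ± 0.17), which acetylates polyamines for export, SAT2 (0.20 ± 0.06), AZIN2 (0.64 ± 0.17) and OAZ3 (0.64 ± 0.09). SAT2 was not called without non-specific replicate 2 or 3 or PXN replicate 3 (0.15 to 0.16).

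Redox and detoxification genes were mixed. Of 53 glutathione and NRF2 target genes 16 rose and 20 fell. HMOX1, heme oxygenase 1, stood at 7.75, 8.303 and 9.58 CPM with non-specific siRNA and 42.6, 31.7 and 56.7 CPM with PXN siRNA, a rise of 2.35 ± 0.19 on the log2 scale, whereas TKT, transketolase of the pentose phosphate pathway, stood at 719.9, 824 and 775 CPM with non-specific siRNA and 328, 448 and 399.7 CPM with PXN siRNA and PRDX3, the mitochondrial peroxiredoxin, fell by 0.64 ± 0.07. HMOX1 was thus the exception in size within a list that did not lean upward. Cytochrome P450, UGT and sulphotransferase genes leaned higher, 17 against 8 of 42 (median 0.52), but without non-specific replicate 3 the count was 11 against 8. CYP3A5, a steroid hydroxylase, rose from 3.17 ± 0.735 to 13.998 ± 3.09 CPM, CYP2J2, an epoxygenase of arachidonic acid, from 9.9998 ± 1.85 to 30.7 ± 2.72 CPM, and CYP4V2, a fatty acid hydroxylase, fell from 52.1 ± 1.94 to 19.04 ± 2.53 CPM. Metallothioneins, which bind zinc and copper, rose in 3 of 4 genes, MT1F from 2.903 ± 0.888 to 6.74 ± 1.64 CPM, MT1G from 15.7 ± 2.42 to 28.8 ± 4.33 CPM and MT2A from 40.6 ± 3.89 to 57.4 ± 7.06 CPM, and their close copies can share reads. Among aldehyde dehydrogenases 5 rose and 5 fell of 15, with ALDH1B1 of mitochondria from 115 ± 7.41 to 59.1 ± 10.9 CPM.

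Lysosome and autophagy genes rose more often than they fell, in contrast to the proteasome. Of 79 tested, 33 rose and 8 fell (median 0.16), though 19 rose without non-specific replicate 3 and 19 without PXN replicate 1. NEU1, lysosomal sialidase, stood at 136, 134 and 115 CPM with non-specific siRNA and 296, 254 and 268 CPM with PXN siRNA, and LAMP1, a major lysosomal membrane protein, at 226, 214 and 189.8 CPM with non-specific siRNA and 90.5, 109 and 86.6 CPM with PXN siRNA. They moved in opposite directions, by 1.09 ± 0.10 and -1.14 ± 0.10. CTSS, cathepsin S, rose from 0.233 ± 0.134 to 2.196 ± 0.284 CPM. The E-box CACGTG, which holds the core of the word read by TFEB and by clock factors, was found before the starts of 18.6% of 59 lysosome and autophagy genes and 31.6% of 19 clock genes, against 6.49% of all promoters and 8.84% of those of tested genes. The word is its own reverse complement. One window of each of the opposed pair is shown; the LAMP1 promoter holds it 5 times.

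NEU1, E-box, chr6:31862930-31862959, minus strand: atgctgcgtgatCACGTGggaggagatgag
LAMP1, E-box, chr13:113297035-113297064, plus strand: accaggccgggtCACGTGggtccagggtca

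At the cell surface the genes of the matrix and of cell contact leaned higher. Of 26 collagen genes 14 rose and 2 fell (median 0.45). COL16A1, a collagen found near hemidesmosomes, stood at 4.43, 4.14 and 2.79 CPM with non-specific siRNA and 19.3, 10.3 and 12.8 CPM with PXN siRNA (log2 fold change 1.90 ± 0.24). COL6A1, of microfibrillar collagen VI, stood at 209, 214 and 183 CPM with non-specific siRNA and 346, 290.3 and 299 CPM with PXN siRNA (0.63 ± 0.10). The 2 that fell were COL3A1 (-0.80 ± 0.19) and, named after its value was seen, COL5A2 (-0.84 ± 0.15). Of 9 laminin genes 4 rose and 1 fell: LAMB3, a chain of laminin 332 of the epithelial basement membrane, from 2.05 ± 0.453 to 8.08 ± 1.32 CPM, LAMA5 from 147 ± 26.2 to 235.8 ± 24.1 CPM, LAMB2 from 281 ± 29.5 to 400.1 ± 55.9 CPM and LAMB4 (1.64 ± 0.32) rose and LAMC3 (-0.998 ± 0.32) fell, the latter pair named after their values were seen, and LAMC3 lost its call without non-specific replicate 1 or PXN replicate 1 (-0.79 to -0.76).

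Integrins, the receptors that paxillin serves, showed no common direction. Of 22 subunits tested 5 rose and 3 fell (22.7% and 13.6%), and the median was -0.02. Their median level was 1.608 CPM, and of all genes at 1 to 5 CPM 29% rose and 12.8% fell, near these shares. ITGA1, a collagen receptor subunit, stood at 2.68, 2.52 and 1.87 CPM with non-specific siRNA and 7.52, 7.11 and 8.03 CPM with PXN siRNA, and ITGA3, a laminin receptor subunit, rose from 15.7 ± 1.75 to 30.3 ± 5.32 CPM. ITGAV, the alpha V subunit, fell from 146 ± 13.5 to 82.98 ± 7.81 CPM. The others that passed, named after their values were seen, were ITGB6 (2.30 ± 0.48), ITGAM (2.06 ± 0.50) and ITGB8 (1.61 ± 0.26) upward and ITGAE (-0.35 ± 0.09) and ITGA6 (-0.26 ± 0.09) downward, ITGA6 not without non-specific replicate 2 or PXN replicate 1 or 3 (-0.24 to -0.22), nor under upper-quartile scaling or a filter at a mean of 1 CPM.

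Inside the cell, TMSB4X, thymosin beta 4, which sequesters actin monomers, stood at 58.3, 41.8 and 45.8 CPM with non-specific siRNA and 267, 177 and 233 CPM with PXN siRNA. Its groups lay far apart (log2 fold change 2.21 ± 0.20), while the list of 73 actin genes split into 20 higher and 21 lower, or 26 and 16 under upper-quartile scaling, and the balance also turned with a filter at a mean of 1 CPM (22 and 19), with only the groups compared (20 and 18) and without single vehicle libraries. EVL, of the Ena/VASP family, rose from 37.9 ± 4.38 to 69.01 ± 3.35 CPM, and DIAPH3, a formin with a known part in cytokinesis, fell from 22.9 ± 0.933 to 4.99 ± 1.91 CPM. TMSB4X has processed pseudogenes that may share reads. DOCK1, a Rac activator downstream of the paxillin partner CRK, fell from 64.8 ± 3.17 to 33.8 ± 2.56 CPM, and ARHGAP26, a GAP that binds focal adhesion kinase, rose from 18.7 ± 1.65 to 31.2 ± 0.0996 CPM.

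Junction genes rose in 21 and fell in 10 of 48. NECTIN4, listed under its older symbol PVRL4 and an adhesion molecule of adherens junctions, stood at 27.7, 26.1 and 22.9 CPM with non-specific siRNA and 66.6, 54.3 and 59.3 CPM with PXN siRNA (log2 fold change 1.23 ± 0.09). PPL, periplakin of desmosomes, rose from 15.04 ± 1.13 to 34.8 ± 3.83 CPM. PRKCI, the atypical protein kinase C of the polarity complex, fell from 86.8 ± 7.62 to 39.4 ± 4.498 CPM. Of 11 keratins tested 5 rose, KRT75 and KRT80 above and, named after their values were seen, KRT6B (3.89 ± 1.22), KRT6C (1.57 ± 0.40) and KRT2 (1.94 ± 0.46), and KRT18 fell. KRT6B was not called without non-specific replicate 2 or 3 or PXN replicate 1 (3.38 to 3.44).

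Protocadherins, neuronal cell adhesion proteins mostly encoded in 3 gene clusters, gave the largest share of rises of any list with more than 12 genes outside the 3 set aside: 32 of 46 rose and 1 fell (PCDHGC3, -0.34 ± 0.11, named after its value was seen), with a median of 0.62. PCDHGC3 lost its call under upper-quartile scaling and without non-specific replicate 1 or PXN replicate 3 (-0.30 to -0.28). The count of rises was 19 without PXN replicate 1, and 21 of 32 with a filter at a mean of 1 CPM. PCDHB2 stood at 13.1, 12.7 and 11.9 CPM with non-specific siRNA and 23.02, 20.4 and 18.96 CPM with PXN siRNA, PCDHB14 at 9.59, 7.65 and 8.29 CPM with non-specific siRNA and 16.3, 14.5 and 13.96 CPM with PXN siRNA, and PCDHGA3 rose from 1.56 ± 0.269 to 3.81 ± 0.457 CPM. Members of the alpha and gamma clusters share their last exons, and how reads in them were counted is not stated in the labels, so single members are uncertain. Their median level of 2.16 CPM lies in a range where 29% of genes rose and 12.8% fell. Semaphorins, plexins and neuropilins, of axon guidance, leaned higher, 10 against 3 of 23. PLXNA2, a plexin, rose from 2.61 ± 0.264 to 6.32 ± 1.19 CPM. EFNA5, a ligand of Eph receptors, fell from 88.3 ± 5.15 to 47.3 ± 6.34 CPM.

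**Figure D5:**
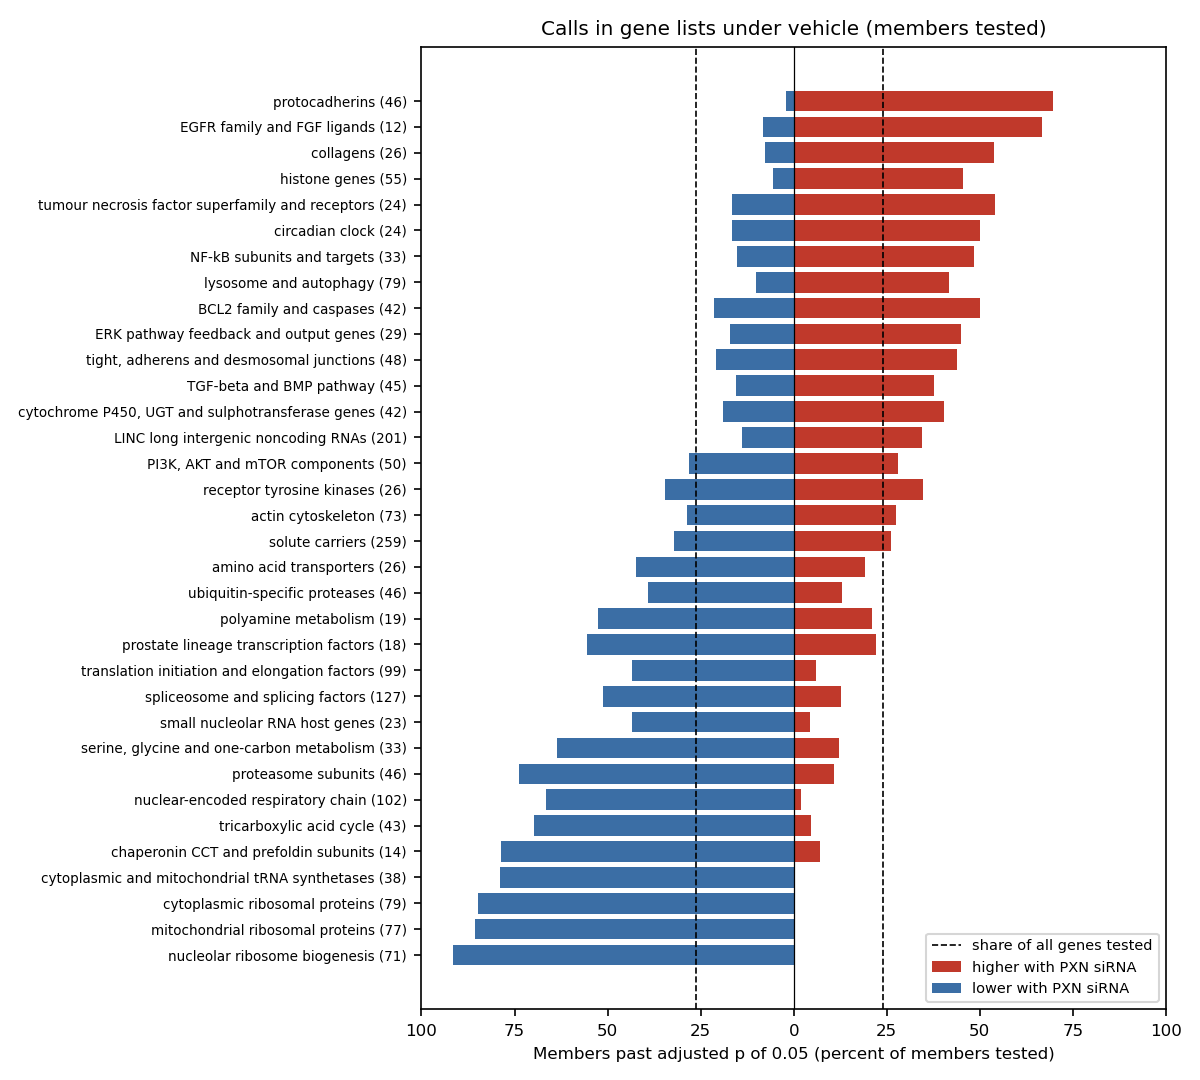
Percent of tested members higher (right, red) and lower (left, blue) with PXN siRNA under vehicle in 34 gene lists, ordered by the difference, with the number tested in brackets. Dashed lines mark the shares of all genes tested, 23.9% higher and 26.3% lower. Lists of ribosome and mitochondrial genes lie at the bottom with few or no rises, and protocadherins, EGFR family and FGF ligands and collagens lie at the top.

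Of 12 genes named for EGFR family ligands and FGFs, which include a homolog that is not secreted and a binding protein, 8 rose and 1 fell (EGF, -0.28 ± 0.07, named after its value was seen), with a median of 0.94. EGF lost its call under upper-quartile scaling, and with a filter at a mean of 1 CPM 5 of 7 rose. HBEGF, heparin-binding EGF, stood at 8.42, 9.93 and 8.57 CPM with non-specific siRNA and 17.1, 18.1 and 18.5 CPM with PXN siRNA (log2 fold change 0.996 ± 0.10). FGF13, an intracellular FGF homolog, rose from 8.84 ± 0.903 to 17.03 ± 2.87 CPM, and FGFBP3, a binding protein that releases FGFs, from 4.27 ± 0.166 to 7.59 ± 0.3502 CPM. Receptor tyrosine kinases split 9 to 9 of 26. FGFRL1, an FGF receptor without a kinase domain, stood at 297, 300.02 and 269 CPM with non-specific siRNA and 94.7, 105 and 96.2 CPM with PXN siRNA, and DDR1, a collagen receptor kinase, at 342, 322 and 283 CPM with non-specific siRNA and 196, 208 and 182 CPM with PXN siRNA. FGFRL1 was the larger fall (-1.55 ± 0.09 against -0.69 ± 0.11), and MERTK, a receptor for dying cells, rose from 11.7 ± 1.44 to 18.6 ± 0.391 CPM.

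Genes that report on the ERK cascade moved both ways. Of 29 feedback and output genes 13 rose and 5 fell (median 0.26). JUN, a component of AP-1, stood at 64.5, 62.3 and 68.04 CPM with non-specific siRNA and 140.05, 109.7 and 151 CPM with PXN siRNA, and DUSP10, a phosphatase of p38 and JNK, at 17.4, 12.5 and 15.3 CPM with non-specific siRNA and 42.6, 30.3 and 41.02 CPM with PXN siRNA. DUSP7, a phosphatase of ERK, fell from 27.3 ± 2.21 to 13.5 ± 0.7804 CPM. The other 4 that fell, named after their values were seen, were ETV5 (-1.64 ± 0.61), ETV1 (-1.48 ± 0.15), SPRY1 (-0.76 ± 0.15) and SPRED1 (-0.44 ± 0.15), all known as targets or brakes of the cascade. ETV5 lost its call without non-specific replicate 3 or PXN replicate 2 or 3 (-1.69 to -1.08) and SPRED1 without non-specific replicate 1 or 3 or PXN replicate 1 or 3 (-0.43 to -0.32), and both did under upper-quartile scaling. In the PI3K, AKT and mTOR list 14 rose and 14 fell of 50, with PIK3C2A, a class II lipid kinase, from 195 ± 5.02 to 93.6 ± 10.1 CPM and RPS6KA3, the kinase RSK2, from 81.005 ± 9.202 to 38.9 ± 2.098 CPM.

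Genes of inflammatory and death signalling leaned higher. Of 24 genes of the tumour necrosis factor superfamily 13 rose and 4 fell (median 0.44). TNFRSF12A, the TWEAK receptor, stood at 25.2, 22.5 and 20.3 CPM with non-specific siRNA and 75.6, 49.2 and 72.4 CPM with PXN siRNA, and TNFRSF21, death receptor 6, at 51.6, 49.1 and 48.2 CPM with non-specific siRNA and 114, 95.8 and 104 CPM with PXN siRNA. Both receptors rose with no overlap (1.54 ± 0.17 and 1.08 ± 0.10). Of 33 NF-kB subunits and targets 16 rose and 5 fell (median 0.20). TNFAIP3, the brake A20, rose from 4.14 ± 0.581 to 9.004 ± 1.11 CPM, and BIRC3, an inhibitor of apoptosis, from 11.8 ± 0.738 to 22.5 ± 0.858 CPM. The subunits NFKB1 (-0.41 ± 0.11) and RELA (-0.18 ± 0.05) were among the 5 that fell, with TNFAIP2 (-1.70 ± 0.30), TRAF2 (-0.23 ± 0.07) and TRAF3 (-0.45 ± 0.06), of which only TRAF3 was named by rule. RELA and TRAF2 lost their calls under upper-quartile scaling. Of 42 genes of the BCL2 family and caspases 21 rose and 9 fell (median 0.23). CASP4, the inflammatory caspase, rose from 24.1 ± 1.41 to 47.96 ± 5.54 CPM, and BCL2L12 fell from 16.8 ± 0.963 to 9.52 ± 0.625 CPM. Several members of these lists are also known as interferon targets. Of the 115 interferon genes set aside 84 rose, and their part in these counts was not tested.

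Developmental pathways gave single large changes more than a lean. In the WNT list 14 rose and 12 fell of 41, or 9 and 12 without PXN replicate 1 and 10 and 12 without non-specific replicate 3. LEF1, a nuclear effector of WNT, stood at 5.596, 4.3002 and 5.27 CPM with non-specific siRNA and 20.7, 12.2 and 15.9 CPM with PXN siRNA (log2 fold change 1.69 ± 0.20). WNT9A, a ligand, rose from 5.77 ± 0.455 to 13.002 ± 2.14 CPM, and LRP5, a coreceptor, fell from 135 ± 11.3 to 83.5 ± 5.45 CPM. In the TGF-beta and BMP list 17 rose and 7 fell of 45, or 11 and 7 without PXN replicate 1. SMAD1, the effector of BMP, rose from 23.04 ± 1.91 to 47.1 ± 4.996 CPM, while BMPR1B, its receptor, fell from 40.1 ± 4.09 to 21.9 ± 1.47 CPM. In the Notch list 12 rose and 7 fell of 33, or 6 and 6 without non-specific replicate 3. RBPJ, the DNA-binding partner of Notch, fell from 121 ± 9.39 to 61.2 ± 2.95 CPM, and ADAM17, a sheddase, rose from 21.9 ± 1.92 to 32.4 ± 0.662 CPM.

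Transport proteins moved singly. Of 259 solute carriers 68 rose and 83 fell, close to the background, and 89 rose and 63 fell under upper-quartile scaling. SLC30A1, a zinc exporter, stood at 31.3, 33.3 and 33.7 CPM with non-specific siRNA and 88.99, 73.9 and 73.4 CPM with PXN siRNA (log2 fold change 1.26 ± 0.08). SLC22A15, an organic cation transporter family gene, rose from 5.04 ± 0.924 to 19.9 ± 2.57 CPM, and SLC20A1, a phosphate importer, fell from 115 ± 9.14 to 57.8 ± 0.141 CPM. Of 26 amino acid transporters 11 fell and 5 rose (42.3% and 19.2%). Their median level was 32.07 CPM, and of all genes at 20 to 100 CPM 40% fell and 23.1% rose, near these shares. SLC7A1, which imports arginine, fell from 207 ± 20.8 to 107 ± 16.1 CPM, and SLC43A2 and SLC38A7 rose, from 83.4 ± 7.23 to 148 ± 18.8 CPM and from 82.4 ± 9.04 to 139 ± 4.61 CPM; SLC38A6 (0.82 ± 0.12), SLC3A2 (0.68 ± 0.09) and SLC1A1 (0.40 ± 0.09) also rose, named after their values were seen. Among calcium, sodium and chloride channels 15 rose and 11 fell of 52, or 10 and 11 of 37 with a filter at a mean of 1 CPM, with ITPR1, the calcium release channel, from 41.3 ± 2.25 to 86.03 ± 3.52 CPM and CACNB3, a calcium channel subunit, from 26.7 ± 1.47 to 55.9 ± 6.34 CPM, while TRPM2 fell from 83.9 ± 2.35 to 55.7 ± 3.55 CPM. Of 42 potassium channel genes 11 rose and 7 fell, or 7 and 7 without PXN replicate 1, with KCNH2 from 5.93 ± 0.825 to 12.7 ± 1.44 CPM and KCNK5 from 5.23 ± 0.631 to 2.22 ± 0.316 CPM. Among ABC transporters 12 rose and 7 fell of 33, or 7 and 8 without non-specific replicate 3. ABCC5, an exporter of cyclic nucleotides, rose from 87.8 ± 16.9 to 184 ± 3.81 CPM, and ABCE1, which recycles ribosomes, fell from 163 ± 12.5 to 81.6 ± 14.7 CPM.

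Nitric oxide and cyclic nucleotide genes did not follow NOS3 as a list: 10 rose and 14 fell of 43, or 14 and 11 under upper-quartile scaling, with 6 higher without non-specific replicate 2 or PXN replicate 3. NOSTRIN, which traffics the NOS3 protein, rose from 7.88 ± 0.324 to 14.2 ± 1.08 CPM, and PDE3B, a phosphodiesterase, fell from 40.2 ± 2.05 to 20.8 ± 2.53 CPM. Among 53 orphan and adhesion G protein-coupled receptors 19 rose and 7 fell (35.8% and 13.2%). Their median level was 3.894 CPM, and of all genes at 1 to 5 CPM 29% rose and 12.8% fell. GPR137B, a lysosomal membrane protein, stood at 27.98, 23.1 and 22.3 CPM with non-specific siRNA and 87.2, 72.4 and 69.8 CPM with PXN siRNA, the groups again apart (log2 fold change 1.64 ± 0.13).

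Tubulins and microtubule proteins split 15 higher and 18 lower of 48, or 20 and 16 under upper-quartile scaling. TUBA1B, an alpha tubulin with close copies, stood at 172, 171 and 191 CPM with non-specific siRNA and 43.5, 63.6 and 50.7 CPM with PXN siRNA (log2 fold change -1.76 ± 0.11), and TUBG1, gamma tubulin of the centrosome, fell from 98.6 ± 5.102 to 45.1 ± 3.42 CPM. MAP7D1, a microtubule-binding protein, fell from 137 ± 5.104 to 63.4 ± 0.678 CPM. Of 103 glycosyltransferases 30 rose and 29 fell, or 19 and 25 without PXN replicate 1 and 20 and 27 without non-specific replicate 2, with B4GALT5, which makes lactosylceramide, from 108 ± 7.21 to 41.3 ± 6.25 CPM. ADAMTS17, a secreted metalloproteinase, stood at 4.28, 5.33 and 4.86 CPM with non-specific siRNA and 30.98, 21.02 and 28.9 CPM with PXN siRNA, far apart between groups (2.48 ± 0.16).

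Histone genes rose in 25 and fell in 3 of 55 (median 0.49). HIST2H2BF, an H2B gene, rose from 6.42 ± 0.357 to 14.7 ± 0.703 CPM. The 3 that fell were variants outside the replication-dependent clusters: H2AFZ, encoding H2A.Z, stood at 429, 374 and 417 CPM with non-specific siRNA and 222, 244 and 231 CPM with PXN siRNA, H2AFX, encoding the damage-marked H2A.X, fell from 80.9 ± 6.12 to 29.6 ± 2.52 CPM, and H1FX, named after its value was seen, fell by 0.36 ± 0.09. Without non-specific replicate 2, 5 fell. Messages of the replication-dependent genes usually end without a poly(A) tail, and the libraries were made with a kit that selects poly(A) RNA, so their values reflect only what such a library captures. The list's median level was 3.29 CPM, in the range where more genes rose than fell.

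Noncoding classes leaned higher. By GENCODE 29 class, 24.5% of 836 long noncoding genes rose and 12% fell, 31.4% of 841 pseudogenes rose and 7.02% fell, and 24.5% of 13133 protein-coding genes rose and 32.6% fell. Most noncoding genes and pseudogenes are low, with medians of 1.40 and 0.738 CPM. At a mean of 1 to 5 CPM, 26.9% of long noncoding and 33.3% of protein-coding genes rose, and at 5 to 20 CPM 27.1% and 28.6%. Among LINC genes 69 rose and 28 fell of 201 (34.3% and 13.9%), at a median level of 1.383 CPM. Of all genes at 1 to 5 CPM 29% rose and 12.8% fell. LINC00161 rose from 27.97 ± 3.599 to 71.7 ± 6.58 CPM and LINC01411 from 2.77 ± 0.118 to 8.42 ± 1.702 CPM. LINC00467 fell from 30.4 ± 0.712 to 16.4 ± 2.14 CPM. Small nucleolar RNA host genes, whose introns hold the guides of rRNA modification, leaned lower: 10 fell and 1 rose of 23, with a median of -0.40, and 16 fell with a replicate block. The 1 that rose was SNHG11 (0.41 ± 0.13), named after its value was seen and not called without non-specific replicate 1 or 3 or PXN replicate 3 (0.28 to 0.38). Their median level was 21.2 CPM and 43.5% fell, beside 40% of all genes and 30.8% of long noncoding genes at 20 to 100 CPM. SNHG3 stood at 132, 142 and 134 CPM with non-specific siRNA and 59.02, 89.3 and 70.4 CPM with PXN siRNA, and SNHG16 fell from 40.3 ± 1.98 to 23.9 ± 4.11 CPM. Among genes named as antisense, 106 rose and 50 fell of 458 (23.1% and 10.9%). Their median level was 1.758 CPM, and both shares were a little below those of all genes at 1 to 5 CPM. CBR3-AS1, which overlaps CBR3 among others, rose from 13.02 ± 2.19 to 29.6 ± 0.956 CPM, and its reads may mix with theirs: the kit marks strand, but whether counting used it is not stated in the labels.

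The same genes were then read in the 6 libraries under DHT, which share no library with those under vehicle. Replicates of the same number, without and with DHT, deviated together from their group means. The correlations were 0.145 to 0.3828 with non-specific siRNA and 0.1004 to 0.3066 with PXN siRNA. The values under DHT are therefore not independent of those under vehicle. Each of the 15 leading rises was called higher there and each of the 15 leading falls lower, with no overlap between groups for any, where 25% of all genes were higher and 26.7% lower under DHT. Their log2 changes under DHT lay between 2.55 and 5.996 in size for the rises and between 1.17 and 2.61 for the falls. DIO3 under DHT stood at 91.4, 70.8 and 51.8 CPM with non-specific siRNA and 845, 525 and 647 CPM with PXN siRNA, and VPS25 at 108, 105 and 109.5 CPM with non-specific siRNA and 30.6, 30.9 and 25.5 CPM with PXN siRNA. Both sets of values lie close to those without hormone. List medians under DHT were -0.32 for cytoplasmic ribosomal proteins, -0.38 for mitochondrial ribosomal proteins, -0.53 for ribosome biogenesis, 0.66 for protocadherins and 0.58 for collagens.

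The difference between the siRNA effects with and without hormone was tested for every gene as an interaction. By edgeR's quasi-likelihood test 0 genes passed, with 778 at an unadjusted p under 0.05, while DESeq2 called 30, limma-voom 0 and the fit with a replicate block 58. The smallest p belonged to FAM174B, a membrane protein gene, which changed by 0.37 ± 0.08 under vehicle and by -0.44 ± 0.08 under DHT (interaction adjusted p = 0.115 in edgeR's quasi-likelihood test, 0.000356 with the replicate block, range over alternatives 1.13e-06 to 0.418). ALDH1A3, a retinoic acid-forming dehydrogenase that DHT induces, changed by 1.01 ± 0.10 and 0.15 ± 0.10 (interaction adjusted p = 0.157 in edgeR's quasi-likelihood test, 0.0168 with the block, range 7.5e-05 to 0.541). TMEM164, a membrane acyltransferase gene, changed by 0.04 ± 0.08 and -0.65 ± 0.08 (interaction adjusted p = 0.157 in edgeR's quasi-likelihood test, 0.0175 with the block, range 0.000193 to 0.541). Neither the 15 leading rises nor the 15 leading falls held a gene whose effect was called different between vehicle and DHT without the block, which does not show that the effects were equal.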

How the data were processed

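Poly(A) RNA of 12 LNCaP libraries, 3 in each of 4 groups, was sequenced after a TruSeq Stranded mRNA preparation, per the labels' protocols. The authors deposited 1 table of raw counts per gene, and the submitters' processing notes name Trimmomatic 0.32, STAR 2.4.2a, featureCounts of Subread 1.5.0p3 and GRCh38. For the annotation, strand setting and treatment of multiply mapped reads nothing is given in the sources used here. Totals ran from 34321000 to 38633456 counts, so that 1 CPM stood for 33.65 to 38.25 counts.

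Genes were filtered with filterByExpr (17669 left out), scaled by TMM and tested with edgeR 4.0.16 (R 4.3.3) by quasi-likelihood F tests on 4 group means over all 12 libraries, with 8 residual degrees of freedom and two-sided Benjamini-Hochberg adjustment. The code was tested on simulated data. Alternatives were RLE and upper-quartile scaling, other filters, DESeq2 1.42.0, limma-voom (limma 3.58.1), only the groups compared, a replicate block and leaving out each library. Same-numbered vehicle libraries had correlated deviations from their group means (0.121 to 0.21), so the numbers were taken to pair them there. Under DHT the lowest was 0.0769, and over all pairs of groups it was -0.0256, between replicates 3 of non-specific siRNA under vehicle and PXN siRNA under DHT. Between vehicle and DHT libraries of the same siRNA the correlations ran from 0.1004 to 0.3828. The main fit did not use this pairing, which entered only as the replicate block among the alternatives.

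The text names the 15 largest rises and 15 largest falls that did not overlap and reached a group mean of 5 CPM, outside 3 lists set aside, then up to 3 members of each of 73 lists by smallest p (at least 1 CPM), and for the interaction the 3 smallest p; exceptions are stated. Some genes that this rule gives are not reported here. The members and lists were chosen with earlier results of these data known. Promoter words were searched on both strands of the 250 bases before RefSeq starts.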

Additional observations from a re-analysis of the deposited data

How the results depend on the processing

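The count of genes called under vehicle, 9276, stayed within 1.5 times under every alternative run, from 7796 without PXN vehicle replicate 1 to 10628 with a replicate block, and that under DHT, 9561, ranged from 8276 without non-specific DHT replicate 3 to 10869 with the replicate block. The interaction count of 0 became 1 with DESeq2 size factors, 35 with no low-count filter, 30 with the DESeq2 Wald test and 58 with a replicate block. Leaving out single libraries gave 0 to 45, the highest without non-specific DHT replicate 1. The cause was not tested. The pairing by replicate block changed the vehicle calls of FN1 and VWF and of no other gene named, and the interactions of FAM174B, ALDH1A3 and TMEM164 passed with it (adjusted p = 0.000356, 0.0168 and 0.0175 in edgeR's quasi-likelihood test). TMEM164, not called under vehicle (log2 fold change 0.04 ± 0.08), ranged, with single libraries left out, from -0.0502 (without non-specific vehicle replicate 3) to 0.0832 (without non-specific vehicle replicate 1) and was also below 0, at -0.0315, without PXN vehicle replicate 1. Upper-quartile scaling moved the median of all genes to 0.12, by itself enough to turn lists with small medians. With 3 libraries a group, genes near 1 CPM rest on 33.65 to 38.25 counts a library, which limits small changes there.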
